A study of Mus musculus with 6 samples.

Results

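The Reg (regenerating islet-derived) genes of the mouse were taken by symbol from the gene counts, and all 7 members sought, *Reg1*, *Reg2*, *Reg3a*, *Reg3b*, *Reg3d*, *Reg3g* and *Reg4*, were among the 56884 genes counted. The counts come from 6 RNA sequencing libraries of cells sorted for Lgr5-GFP, the reporter of intestinal stem cells, out of organoids of the mouse small intestine, cultured epithelium that keeps its crypts and their stem cells. Every group, the vehicle controls included, carried Ythdf2fl/fl alleles, which Cre recombinase can cut, together with Villin-CreERT2 and Lgr5-EGFP-IRES-CreERT2. CreERT2 is a Cre that 4-hydroxytamoxifen (4-OHT) switches on, driven here by the villin promoter throughout the epithelium and by the *Lgr5* locus in stem cells. Organoids received 0.5 µM 4-OHT or ethanol (EtOH), and cells were collected at day 6 (2 libraries for each label) or day 4 (1 library for each label). The series title places this experiment in a study of YTHDF2, a reader of methylated RNA, and the maintenance of intestinal stem cells.

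Reg genes encode small secreted proteins with a C-type lectin fold. In the small intestine, REG3B and REG3G are antimicrobial lectins, REG3G binding the peptidoglycan of Gram-positive bacteria, and they are released by enterocytes and Paneth cells, where interleukin-22 acting through STAT3 and microbial signals acting through MYD88 are known to raise their genes. REG1 was first described in the pancreas and is also made by the intestinal epithelium, whereas REG4 is a product of secretory cells, among them enteroendocrine cells of the small intestine and deep crypt secretory cells of the colon. From this background, and not from a test here, *Reg1* and the Reg3 members are called enterocyte-type below and *Reg4* secretory.

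The libraries held 14345379 to 21461835 gene counts. *Ythdf2*, the floxed gene, was higher in the libraries labelled 4-OHT, not lower. It stood at 82.8 and 76.1 CPM (counts scaled to library size by the TMM method) with EtOH at day 6 and at 208 and 204 CPM under the 4-OHT label. The day 4 libraries had 76.0 CPM (EtOH) and 167 CPM (4-OHT). The difference at day 6 was 1.37 on the log2 scale (standard error, SE, 0.16, adjusted p = 0.0018, edgeR quasi-likelihood test). Counts per gene do not show whether the floxed part was lost, so groups keep their labels as names, and higher or lower always means 4-OHT by label against EtOH. *Lgr5* was present in every library at 209 to 368 CPM, and the 14 stem cell markers summed to 2603 to 5470 CPM. The day 4 libraries carry names from another numbering series, and reads assigned to no gene made up 6.19% to 6.70% of their entries against 2.63% to 3.76% at day 6, so day and library series cannot be told apart. The labels do not say whether replicates came from separate cultures, so p-values measure only the spread between these libraries. Fewer cells of a type and less RNA per cell cannot be told apart in such bulk samples.

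In the GRCm39 build, 6 of the 7 genes lie together on chromosome 6 between positions 78347640 and 78445859, a stretch of 98.2 kb that held no other annotated gene, while *Reg4* lies alone on the plus strand of chromosome 3 (98129468 to 98144066, ENSMUSG00000027876). *Reg3b* (ENSMUSG00000071356, 78347640 to 78350455), *Reg3a* (ENSMUSG00000079516, 78357692 to 78360810), *Reg2* (ENSMUSG00000023140, 78372606 to 78385089) and *Reg1* (ENSMUSG00000059654, 78399694 to 78405828) are on the plus strand of the chromosome 6 cluster. *Reg3d* (ENSMUSG00000068341, 78352857 to 78355848) and *Reg3g* (ENSMUSG00000030017, 78443246 to 78445859) are on its minus strand. No exon of the 7 genes overlapped an exon of another gene. Exact stretches of 50 or more bases shared with the transcripts of another gene were found for *Reg2*, with 8 other genes, and for none of the other 6 members.

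The 150 bases before the transcription start are shown for the 5 members that had enough counts to be tested, since 4 of them are neighbours whose levels were higher in the libraries labelled 4-OHT and *Reg4* is the member set against them. The sequences are from RefSeq promoters (GRCm38.p6), each found once in GRCm39, and are written 5′ to 3′ on the gene's strand. GENCODE M39 has transcripts that start further upstream, so that 53 bases of the *Reg1* stretch and 24 of the *Reg3b* stretch also lie in an exon of such a transcript, as do 4 bases of *Reg4* and 2 of *Reg3g*. They lie at chr6:78402816-78402965 (plus), chr6:78357542-78357691 (plus), chr6:78347718-78347867 (plus), chr6:78445858-78446007 (minus) and chr3:98129322-98129471 (plus). Capitals mark matches on either strand to TATAAA, the TATA box, in *Reg1*, *Reg3b* and *Reg3g*, and to TTCNNNGAA, the STAT-type site, in *Reg3b*. In *Reg4* they mark the Gata-type letters AGATAA and, a base further on, the Hnf1-type letters GTTAAT.
Reg1: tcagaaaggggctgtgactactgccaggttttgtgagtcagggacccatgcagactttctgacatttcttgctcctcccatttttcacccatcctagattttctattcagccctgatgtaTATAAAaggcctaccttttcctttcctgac
Reg3a: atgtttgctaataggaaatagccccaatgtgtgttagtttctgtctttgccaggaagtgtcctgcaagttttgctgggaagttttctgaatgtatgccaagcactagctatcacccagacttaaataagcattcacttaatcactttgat
Reg3b: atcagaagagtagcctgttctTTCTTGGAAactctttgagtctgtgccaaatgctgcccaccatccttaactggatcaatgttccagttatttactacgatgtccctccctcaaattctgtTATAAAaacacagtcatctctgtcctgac
Reg3g: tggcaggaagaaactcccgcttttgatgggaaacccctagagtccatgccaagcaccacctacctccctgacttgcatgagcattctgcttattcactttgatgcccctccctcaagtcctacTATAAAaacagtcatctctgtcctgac
Reg4: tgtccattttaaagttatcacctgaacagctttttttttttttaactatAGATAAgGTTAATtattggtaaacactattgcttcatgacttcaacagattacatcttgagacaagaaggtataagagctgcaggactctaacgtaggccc

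A TATAAA began 30 bases before the start of *Reg1* as RefSeq places it, 29 before that of *Reg3b* and 27 before that of *Reg3g*, and none was found in the windows of *Reg3a* or *Reg4*, taken from 250 bases before to 50 after the start. Windows with TATAAA on either strand made up 13.6% of the 32851 promoters of the table. The STAT-type match of *Reg3b* began 129 bases before the start, and 8.30% of promoters held such a match. Of the other members, only *Reg3d* had one, from 238 bases before its start, and *Reg3g* had none. In *Reg4* the Gata-type and Hnf1-type matches began 101 and 94 bases before the start, and 11.2% and 7.10% of promoters held them. *Reg3b* and *Reg3g* had the most similar promoters of the family, with 214 identical bases in the alignment (71.3% of the window), including an exact stretch of 29 bases from 20 bases before the start that was found in 2 of the 32851 promoters. The other pairs of members shared 57.3% to 65.3%. Matches to the E-box letters CAGCTG were found in 0 of the 7 windows and in 16.3% of promoters. The short Cdx-type letters (TTTAT), whose matches can overlap TATAAA, were in all windows but those of *Reg3d* and *Reg4*, and in 40% of promoters. The short Tcf-type letters (CTTTG) were in all windows but that of *Reg1*, and in 53.9% of promoters. These are matches of letters, and binding was not measured.

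Per kilobase of exon, *Reg4* was the most abundant member and was above *Reg1* in 6 of 6 libraries. The mean over the libraries was 75.9 CPM per kb for *Reg4* (range 22.3 to 125), 15.2 for *Reg1* (0.0474 to 47.0), 6.91 for *Reg3g* (1.86 to 22.7), 4.29 for *Reg3a* (0.0910 to 11.6) and 0.882 for *Reg3b* (0.179 to 2.40). Several neighbours in this order changed places between libraries. *Reg1* was above *Reg3g* in 5 of 6 libraries, the exception being EtOH at day 4. *Reg3g* was above *Reg3a* in 5 of 6, the exception being 4-OHT replicate 2 of day 6, and *Reg3a* above *Reg3b* in 5 of 6, the exception again being EtOH at day 4. The order within those 3 neighbouring pairs was thus not the same in every library, and it was not tested. In the day 4 EtOH library *Reg1* had 1 count and *Reg3a* had 2. *Reg3d* and *Reg2*, which in other work are genes of the pancreas, were at the limit of detection. *Reg3d* had 1 count in EtOH replicate 2 and 2 in 4-OHT replicate 1 of day 6, 5 in the day 4 library labelled 4-OHT and 0 in the other 3 libraries. *Reg2* had 1 count in all, in the day 4 EtOH library. A count of 0 allows up to 3 counts, or 0.140 to 0.204 CPM in these libraries, by counting error only.

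**Figure D1:**
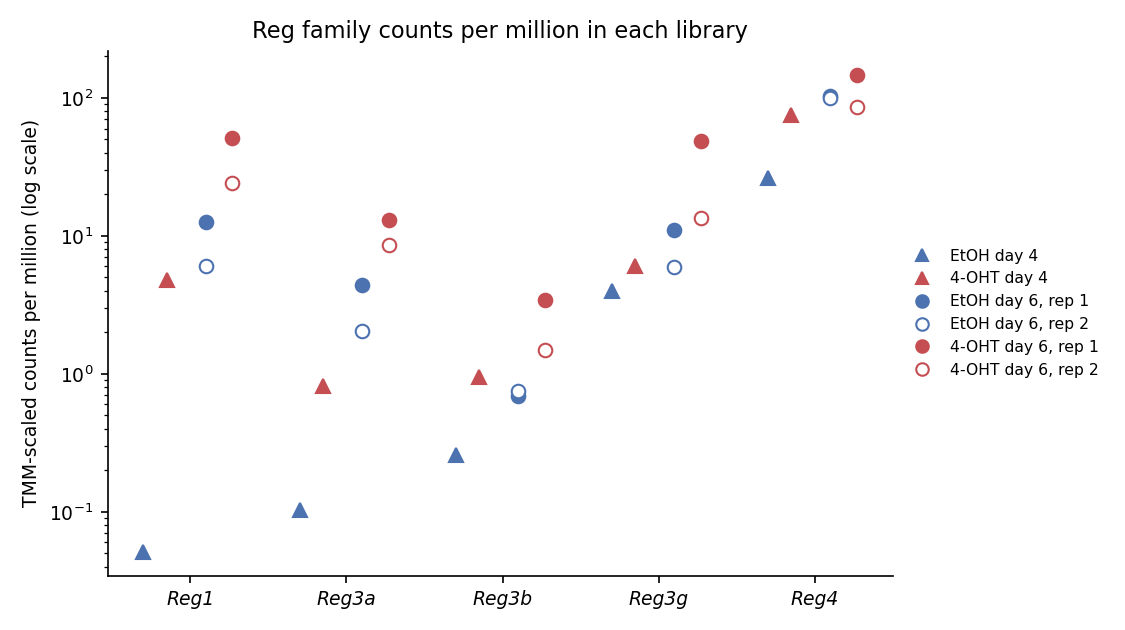
TMM-scaled CPM on a log axis for the 5 Reg genes that were tested, with 1 point per library (triangles, day 4; circles, day 6; blue, EtOH; red, 4-OHT; open circles, replicate 2). At day 6 both red circles lie above both blue circles for Reg1, Reg3a, Reg3b and Reg3g, while for Reg4 the EtOH circles (104 and 99.99) fall between those of 4-OHT (147 and 85.4).

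At day 6, *Reg1* and *Reg3a* rose in the libraries labelled 4-OHT, *Reg3b* and *Reg3g* had log2 fold changes of the same size that did not pass the test, and *Reg4* was near its EtOH level. Of the 5 members past the filter on low counts, 2 were called higher and 0 lower at an adjusted p under 0.05, where 2.27% of the 14066 genes tested were called higher and 2.51% were called in either direction. Both libraries labelled 4-OHT were above both EtOH libraries for 4 of the 5, against 20.4% of all genes tested. The median log2 fold change of the 5 was 1.79, beside -0.013 for all genes. *Reg2* and *Reg3d* did not pass the filter.

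*Reg1*, a secreted lectin of regenerating pancreas and gut, had 12.7 and 6.03 CPM (239 and 104 counts) in the EtOH libraries of day 6 and 50.8 and 24.2 CPM (1092 and 451 counts) in those labelled 4-OHT. Both 4-OHT libraries were above both EtOH libraries, and within each label replicate 1 was the higher by a factor of 2.10. The means were 9.34 ± 4.69 and 37.5 ± 18.8 CPM (SD, n = 2 each). The log2 fold change was 2.0 (SE 0.40, adjusted p = 0.029, edgeR quasi-likelihood test, Benjamini-Hochberg over all genes). The call was lost without EtOH replicate 1 (log2 fold change 2.64, adjusted p = 0.101), without EtOH replicate 2 (1.56, 0.137) and with edgeR's robust dispersion (adjusted p = 0.109). Without 4-OHT replicate 1 the value was 1.36, from a fit with 1 library labelled 4-OHT.

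*Reg3a*, a Reg3-type lectin next to *Reg3d* in the cluster, had 4.40 and 2.03 CPM with EtOH (83 and 35 counts) and 13.0 and 8.62 CPM in the libraries labelled 4-OHT (280 and 161 counts). The groups did not overlap, and replicate 1 was again the higher within each label. Its log2 fold change was 1.74 (SE 0.39, edgeR adjusted p = 0.0493), just under the threshold. The call was lost without either EtOH library (log2 fold change 2.41, adjusted p = 0.101 without replicate 1, and 1.30, 0.153 without replicate 2) or 4-OHT replicate 1 (1.41, 0.0664), and with median-of-ratios scaling (0.0502), no filter (0.0576), limma-voom (0.0618) or edgeR's legacy fitting method (0.0641). The newer edgeR fitting method used here was chosen after the calls of both had been seen.

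*Reg3g*, the lectin that acts on Gram-positive bacteria, had 11.0 and 5.91 CPM with EtOH at day 6 and 48.9 and 13.4 CPM in the libraries labelled 4-OHT. The groups did not overlap, but the 2 libraries labelled 4-OHT differed by a factor of 3.64, the widest replicate gap among the 5 members. At 1.88 (SE 0.51), its log2 fold change missed the threshold (edgeR adjusted p = 0.117). Leaving out 4-OHT replicate 1 gave 0.67, and leaving out 4-OHT replicate 2 gave 2.52. Each of these fits had 1 library labelled 4-OHT, so a p-value would hold no spread within that label, and none is given.

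*Reg3b*, the other well-studied antimicrobial member, was far scarcer, with 0.688 and 0.753 CPM with EtOH (13 and 13 counts) and 3.44 and 1.5 CPM in the libraries labelled 4-OHT (74 and 28 counts). The groups did not overlap, and the EtOH libraries were closer together than the 4-OHT libraries, which differed by a factor of 2.30. Its log2 fold change, 1.79 (SE 0.57), missed the threshold (edgeR adjusted p = 0.201). Leaving out 4-OHT replicate 1 gave 1.05, and leaving out 4-OHT replicate 2 gave 2.24, again from fits with 1 library labelled 4-OHT.

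*Reg4*, the secretory member, had 104 and 99.99 CPM with EtOH at day 6 and 147 and 85.4 CPM with 4-OHT. The EtOH libraries lay between those of 4-OHT, so the groups overlapped. The log2 fold change was 0.19 (SE 0.23, edgeR adjusted p = 0.889), and it was -0.26 without 4-OHT replicate 1. For each of the 5 members tested, 4-OHT replicate 1 of day 6 was the highest of the 6 libraries.

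With both days in the fit and day as a term, 2 of 5 members were again called higher, where 3.67% of 14060 genes were called higher and 4.39% in either direction. *Reg1* had a log2 fold change of 2.26 (SE 0.45, edgeR adjusted p = 0.0201) and *Reg3a* of 1.80 (SE 0.36, edgeR adjusted p = 0.0206). *Reg3b* (1.81, SE 0.48), *Reg3g* (1.56, SE 0.48) and *Reg4* (0.61, SE 0.27) had edgeR adjusted p-values of 0.0750, 0.120 and 0.306. The median of the 5 was 1.80, beside -0.009 for all genes. This fit shares the day 6 libraries with the comparison above and is not a separate test of it. Both calls were lost without EtOH replicate 2 of day 6 (adjusted p = 0.0509 for *Reg1* and 0.0755 for *Reg3a*), without 4-OHT replicate 1 of day 6 (0.112 and 0.127) and with no day term (0.361 and 0.400). The *Reg1* call, but not that of *Reg3a*, was lost with DESeq2 (0.0918) and with the robust dispersion (0.0937). *Reg3b* passed with DESeq2 (1.81, adjusted p = 0.0462), and without 4-OHT replicate 2 of day 6 both *Reg3b* (2.17, edgeR adjusted p = 0.034) and *Reg3g* (1.93, 0.0378) passed.

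At day 4, where each label had 1 library and no test was made, the 5 members also had more CPM in the library labelled 4-OHT. *Reg1* had 1 count with EtOH and 70 with 4-OHT (0.0513 and 4.75 CPM), a ratio of 92.7 with an exact 95% counting interval of 16.1 to 3711. *Reg3a* had 2 and 12 counts (0.103 and 0.814 CPM, ratio 7.94, interval 1.77 to 73.1), and *Reg3b* had 5 and 14 (0.256 and 0.95 CPM, ratio 3.71, interval 1.26 to 13.1). *Reg3g* differed least of the 5, with 78 and 89 counts (4.00 and 6.04 CPM, ratio 1.51, interval 1.10 to 2.07). *Reg4*, which had no clear difference at day 6, had 514 and 1108 counts (26.4 and 75.2 CPM, ratio 2.85, interval 2.57 to 3.17). The intervals cover counting error only and say nothing of the spread between libraries. On the fitted scale with a prior count of 2, 4 of the 5 were at least 2-fold higher. Of the 12836 genes averaging 1 CPM or more at day 4, 4.63% were. That set leaves out *Reg3a* and *Reg3b*, which were under 1 CPM in both day 4 libraries, so the share is not a like one for them. Over both days, *Reg1*, *Reg3a*, *Reg3b* and *Reg3g* had every library labelled 4-OHT above the EtOH libraries of its day, which held for 16.2% of genes.

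**Figure D2:**
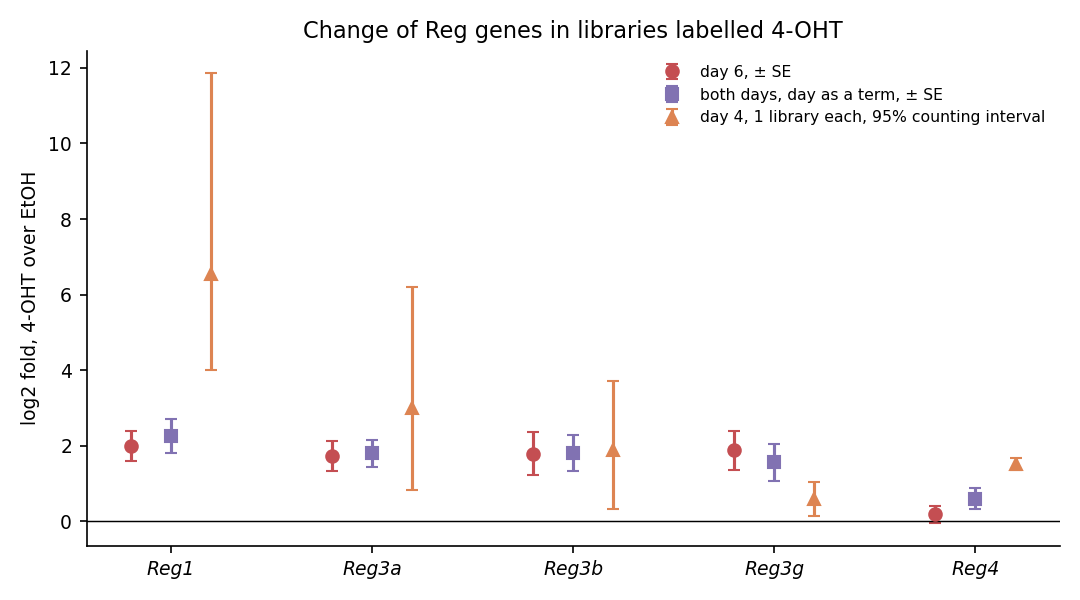
Log2 fold of libraries labelled 4-OHT over EtOH for the 5 tested Reg genes (y axis) at day 6 (circles, ± SE), over both days (squares, ± SE) and at day 4 (triangles, count ratio of 1 library each with its 95% counting interval). The day 6 values of Reg1 and the Reg3 genes lie between 1.74 and 2.0 and that of Reg4 at 0.19, while at day 4 Reg4 lies above Reg3g.

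No member passed the adjusted threshold in the test of whether the change differed between days. In the edgeR test of the difference, 0 of 14060 genes were called (0% in either direction, with 228 at an unadjusted p under 0.05 and 6 called by DESeq2). Day 6 minus day 4, the difference in log2 fold change was -4.36 (SE 1.65) for *Reg1*, -1.17 (SE 1.62) for *Reg3a*, -0.07 (SE 1.15) for *Reg3b*, 1.29 (SE 0.96) for *Reg3g* and -1.32 (SE 0.41) for *Reg4*. With 1 library per label at day 4, the errors were wide for all of these but *Reg4*. In simulated counts this test called 11.2% of 2-fold and 67.6% of 4-fold differences, so it does not show that the changes were alike. *Reg4* had an unadjusted p of 0.00831 and *Reg1* of 0.0234 in this edgeR fit, with adjusted p-values of 1.

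Between days, *Reg3a* and *Reg1* were higher at day 6 than at day 4 with treatment as a term, 2 of the 5 members tested, where 0.327% of genes were called higher and 0.562% in either direction. *Reg3a* had a log2 fold change of 3.99 (SE 0.55, edgeR adjusted p = 0.0146) and *Reg1* of 3.54 (SE 0.58, edgeR adjusted p = 0.0366). The other 3 had positive values that did not pass, at 1.77 (SE 0.56, edgeR adjusted p = 0.235) for *Reg3g*, 1.42 (SE 0.57, 0.338) for *Reg3b* and 1.23 (SE 0.30, 0.135) for *Reg4*. For *Reg1*, *Reg3a* and *Reg4*, all 4 day 6 libraries were above both day 4 libraries, which held for 9.99% of genes. *Reg3b* and *Reg3g* overlapped, since the day 4 library labelled 4-OHT had more of each (0.95 and 6.04 CPM) than the lower of the EtOH libraries of day 6. Without the day 4 library labelled 4-OHT or labelled EtOH, neither gene was called (edgeR adjusted p = 0.0599 and 0.0800 for *Reg1*, 0.195 and 0.0646 for *Reg3a*), and *Reg1* was also not called without 4-OHT replicate 1 of day 6 (0.0759), with the legacy method (0.0569) or with the robust dispersion (0.144). With the day 4 library labelled 4-OHT left out, the *Reg1* value was 7.34. *Reg4* was called without 4-OHT replicate 2 of day 6 (1.51, adjusted p = 0.0268).

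Set against each other within each library, the sum of the enterocyte-type members was higher relative to *Reg4* in the libraries labelled 4-OHT at day 6 and about the same at day 4, where the members differed. The summed CPM of *Reg1*, *Reg2* and the Reg3 members was 28.7 and 14.8 with EtOH at day 6 and 116 and 47.7 with 4-OHT. At day 4 it was 4.46 with EtOH and 12.9 with 4-OHT. The log2 ratio of this sum to *Reg4* was -1.86 and -2.76 with EtOH at day 6 and -0.34 and -0.84 in the libraries labelled 4-OHT. The groups did not overlap, and the means differed by 1.72. No p is given for a sum over members, and 2 against 2 libraries could not reach an exact permutation p under 0.333. At day 4 the log2 ratio was -2.56 with EtOH and -2.54 with 4-OHT, the sum and *Reg4* both being higher with 4-OHT. Behind those near-equal values, the log2 ratio of *Reg1* to *Reg4* was -9.00 with EtOH, from 1 count, and -3.98 with 4-OHT, and that of *Reg3g* to *Reg4* was -2.72 and -3.64. Without *Reg1*, the member of the sum with the most counts, the day 6 values were -2.70 and -3.51 against -1.17 and -1.86, and the day 4 values -2.58 and -3.21, so that at day 4 the summed Reg3 level was lower relative to *Reg4* with 4-OHT. That sum was mostly *Reg3g*, with 78 counts with EtOH at day 4 against 2 for *Reg3a* and 5 for *Reg3b*. The 4-OHT to EtOH ratio of *Reg3g*, 1.51, was below the 2.85 of *Reg4*, whereas the ratios of *Reg3a* (7.94) and *Reg3b* (3.71) were above it, with intervals that overlap that of *Reg4*.

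As a share of the family's level per kb of exon, *Reg4* made up 80.6% and 88.8% with EtOH at day 6, 59.8% and 66.0% with 4-OHT, and at day 4 90.9% with EtOH and 87.6% with 4-OHT. Its share of the family's counts was 78.4% (95% Wilson interval 76.7 to 79.9) and 87.1% (85.6 to 88.5) with EtOH at day 6, and 55.9% (54.6 to 57.2) and 64.1% (62.2 to 66.0) in the libraries labelled 4-OHT. The EtOH replicates thus differed from each other by more than counting error, and both stayed above the 4-OHT libraries. *Reg1* held 10.7% and 5.85% of the level per kb with EtOH at day 6 and 22.5% and 20.4% in the libraries labelled 4-OHT.

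**Figure D3:**
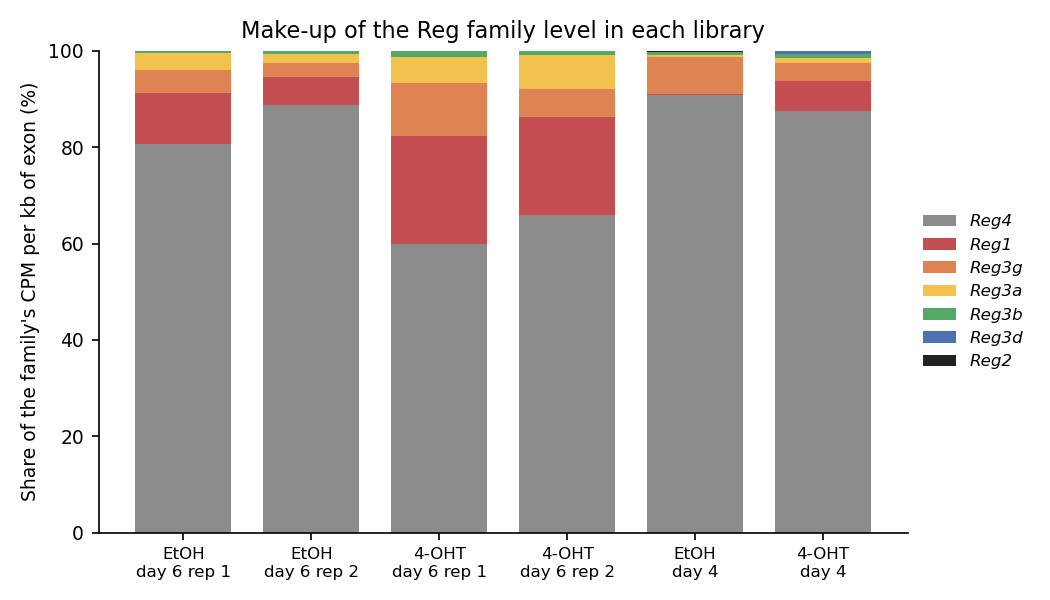
Share of each Reg gene in the summed CPM per kb of exon of the 7 Reg genes (stacked bars, percent) in each of the 6 libraries. Reg4 (grey) makes up 59.8% and 66.0% with 4-OHT at day 6 and 80.6% to 90.9% in the other 4 libraries.

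Markers of enterocytes, the absorptive cells, moved with the enterocyte-type members at day 6. Of all 14066 genes tested at day 6, 320 (2.27%) were called higher and 33 lower. Of 16 enterocyte markers, 10 were called higher and 0 lower at day 6 (median log2 fold change 1.81), led by *Apoa1*, an apolipoprotein (3.25, SE 0.23, edgeR adjusted p = 0.0001), *Krt20*, a keratin of mature epithelium (2.65, SE 0.19, 0.0001), *Apoc3* (2.65, SE 0.33, 0.00254), the fatty acid binding protein gene *Fabp1* (2.39, SE 0.27, 0.00163) and *Alpi*, intestinal alkaline phosphatase (2.27, SE 0.17, 0.000139). Their summed level was 2552 and 2716 CPM with EtOH and 6287 and 5166 CPM with 4-OHT at day 6. The day 4 libraries had 2135 CPM with EtOH and 2820 with 4-OHT. The enterocyte sum differed little between the EtOH replicates of day 6, while the summed *Reg1*, *Reg2* and Reg3 level differed between them (28.7 and 14.8 CPM). Single markers within the enterocyte sum went either way between these replicates. *Fabp1* (114 and 60.9 CPM) and *Apoc3* (7.57 and 3.42) were higher in replicate 1, and *Sis* (200 and 275) and *Slc5a1* (252 and 373) in replicate 2. The part of absorptive cells among the sorted cells in the *Reg1* and *Reg3a* results was not tested. Among 14 stem cell markers, *Slc14a1* (-2.83, SE 0.55, edgeR adjusted p = 0.0266) and *Olfm4* (-1.27, SE 0.26, 0.0312) were called lower, 0 were called higher, and *Lgr5* itself had -0.45 (SE 0.19, adjusted p = 0.413). With limma-voom *Olfm4* was the only stem cell marker called.

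The summed level of 16 markers of enteroendocrine cells, the hormone-making cells of the epithelium, followed the *Reg4* levels across libraries. It was 522 and 433 CPM with EtOH at day 6, 794 and 419 CPM with 4-OHT, and at day 4 69.5 CPM with EtOH and 308 with 4-OHT. As with *Reg4*, 4-OHT replicate 1 was the highest and the day 4 EtOH library the lowest. *Chgb* alone gave 255 of the 522 CPM and 423 of the 794 CPM. Single markers differed, 9 of the 16 having a positive log2 fold change at day 6. *Sst*, for one, had 13.0 and 11.0 CPM with EtOH at day 6 and 8.19 and 9.05 with 4-OHT. At day 6, 0 of the 16 were called by edgeR, with 2 at an unadjusted p under 0.05, and 0 by DESeq2 or limma-voom (median log2 fold change 0.06). The 13 Paneth cell markers behaved in a similar way, at 3444 and 2617 CPM with EtOH and 5502 and 2537 CPM with 4-OHT at day 6, and at day 4 883 CPM with EtOH and 2072 with 4-OHT. Of these, 0 were called at day 6 by edgeR, DESeq2 or limma-voom, with 4 at an unadjusted p under 0.05 in edgeR. The median log2 fold change was 0.16, with 9 of the 13 positive. Over both days 1 of the 13 was called higher, where 3.67% of all genes were. It was *Ang4* (2.12, SE 0.41, edgeR adjusted p = 0.0181), with 66.9 and 44.2 CPM with EtOH at day 6 and 279.5 and 87.6 with 4-OHT. Of 13 tested goblet cell markers 2 were called higher, *Zg16*, a lectin that binds bacteria (2.75, SE 0.27, edgeR adjusted p = 0.000664), and *Clca1*, a secreted protein of mucus (1.24, SE 0.23, 0.0210), with a list median of -0.18. Over all genes tested at day 6, 2.27% were called higher.

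**Figure D4:**
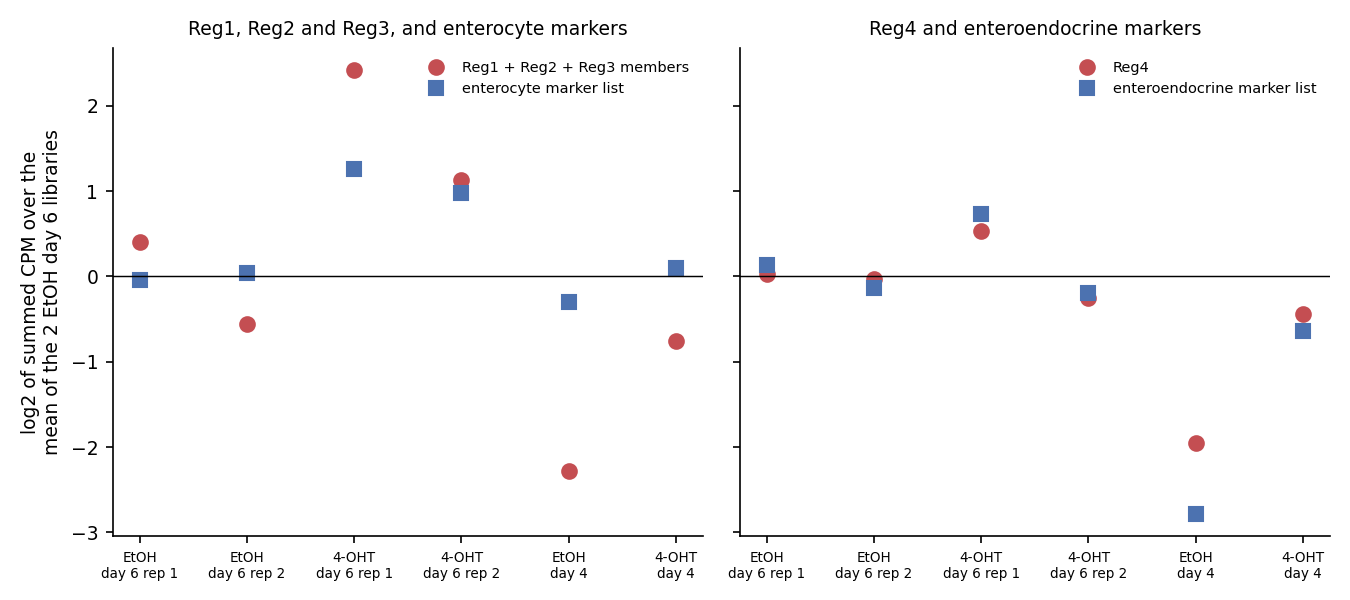
Log2 of the summed CPM in each library relative to the mean of the 2 EtOH libraries of day 6, for Reg1, Reg2 and the Reg3 genes with the 16 enterocyte markers (left) and for Reg4 with the 16 enteroendocrine markers (right). On the left both sets are highest in the 2 day 6 libraries labelled 4-OHT, and on the right both sets are highest in 4-OHT replicate 1 of day 6 and lowest in the day 4 EtOH library (26.4 CPM for Reg4, 69.5 CPM for the markers).

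Markers of other cells gave low values. The summed level was 4.40 to 8.97 CPM for 9 immune markers, 0.696 to 1.95 CPM for 9 markers of stroma and endothelium, and 8.62 to 42.3 CPM for 11 tuft cell markers. Of the tuft cell markers, *Dclk1* was called lower at day 6 (-2.24, SE 0.48, edgeR adjusted p = 0.0388). That call was lost with edgeR's legacy method (adjusted p = 0.0548) and with limma-voom, which called 0 of them, while DESeq2 called 3 lower. The 10 pancreatic acinar markers, checked because Reg genes are abundant in that tissue, summed to 8.55 to 14.2 CPM. Of these, *Cela2a*, *Cpa1*, *Prss2*, *Amy2b* and *Ptf1a* had 0 counts in all 6 libraries, while *Cela1*, *Ctrb1*, *Pnlip*, *Cel* and *Cpb1* had some. The annotation holds 2 overlapping *Amy2b* entries, so reads there could be set aside as ambiguous. Of the 2 acinar genes tested, *Ctrb1*, a chymotrypsinogen, was called lower in the libraries labelled 4-OHT (-2.28, SE 0.51, edgeR adjusted p = 0.0487), and *Cela1*, an elastase with the higher level of the 2, was not called (0.21, SE 0.29, adjusted p = 0.903). With limma-voom *Ctrb1* was not called. Over all 14066 genes tested at day 6, 33 were called lower.

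Of the genes known to sit above the Reg3 members, those tested were not called at day 6. Others, among them *Il10rb*, the other chain of the interleukin-22 receptor (mean 0.518 CPM), were too low to be tested. *Il22ra1*, a chain of the interleukin-22 receptor, had 8.53 and 9.74 CPM with EtOH at day 6 and 15.5 and 12.1 CPM with 4-OHT, and at day 4 10.2 CPM with EtOH and 17.7 with 4-OHT. The libraries labelled 4-OHT were above the EtOH libraries of their day, with a day 6 log2 fold change of 0.60 (SE 0.26, edgeR adjusted p = 0.457). *Stat3*, the transcription factor, had 0.28 (SE 0.18, adjusted p = 0.699), and *Socs3*, a feedback inhibitor that STAT3 induces, had 0.07 (SE 0.25, adjusted p = 0.970). Of 23 tested genes of cytokine receptors and STAT signalling, 0 were called by edgeR, DESeq2 or limma-voom at day 6, with 2 at an unadjusted p under 0.05 in edgeR (median 0.11). Of 19 target genes of interleukin-22 and STAT3 outside the Reg family, 11 were tested. Of these, 0 were called by those tools and 0 had an unadjusted p under 0.05 in edgeR (median 0.09). *Saa1*, *Saa2*, *Saa3*, *Lcn2*, *S100a8*, *S100a9*, *Lrg1* and *Muc1* averaged 0.38 CPM or less and could not be tested, so the result does not cover them. Of 18 tested genes of microbe sensing, such as Toll-like receptors and *Myd88*, 0 were called by those tools, with 3 at an unadjusted p under 0.05 (median 0.03).

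Of 22 tested genes of other antimicrobial and mucosal defence proteins, 3 were called higher at day 6, where 2.27% of all genes were (median 0.58), and over both days 5 of 21, where 3.67% were. Those of day 6 were *Zg16*, given above, *Lgals3*, the lectin galectin-3 (1.93, SE 0.21, edgeR adjusted p = 0.00135), and *Sprr2a3*, of a gene family whose near-identical copies can split reads (0.74, SE 0.16, 0.0388). On the receiving side, *Extl3*, proposed as a receptor of Reg proteins, had 51.2 and 66.1 CPM with EtOH and 71.7 and 62.2 CPM with 4-OHT at day 6, and at day 4 69.0 CPM with EtOH and 76.6 with 4-OHT. These values overlapped at day 6 (log2 fold change 0.19, SE 0.19, edgeR adjusted p = 0.851), and of 3 tested genes proposed as receptors 0 were called by edgeR, DESeq2 or limma-voom, with 0 at an unadjusted p under 0.05. The trypsinogen genes *Prss2* and *Prss3*, of the protease family that trims Reg3 proteins, were at 0 counts. Of 22 transcription factors of absorptive and secretory fate, *Maf* (1.85, SE 0.37, edgeR adjusted p = 0.0307) and *Klf4* (1.09, SE 0.21, 0.0238) were called higher and 0 lower.

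The genes most like each member across the 6 libraries were ranked by Pearson correlation of log2 CPM among 10432 genes averaging 5 CPM or more. These are descriptions over 6 libraries that share days and depth, with no test. For *Reg4* they were *Chgb* (r = 0.996), *Cpe* (0.996) and *Scg2* (0.992), which encode proteins of hormone-storing granules. For *Reg1* they were *Gata5* (0.997), *Capn1* (0.992) and *Afp* (0.991), and for *Reg3g* they were *Slc43a2* (0.987), *Gnpda1* (0.983) and *Id2* (0.979). Among the members themselves, *Reg1* correlated with *Reg3a* at 0.966 and with *Reg4* at 0.952, above its correlation with *Reg3b* (0.889) and *Reg3g* (0.810). Pearson correlation thus does not set *Reg1* and the Reg3 members apart from *Reg4*. By Spearman rank correlation, *Reg1* was nearer to *Reg3a* (1) and *Reg3g* (0.943) than to *Reg4* (0.829), with *Reg3b* at 0.771. Likeness in pattern did not mean a change of like size. At day 6 *Gata5*, an endodermal transcription factor, had a log2 fold change of 0.30 (SE 0.19, edgeR adjusted p = 0.696) beside 2.0 for *Reg1*, and *Chgb* had 0.44 (SE 0.27, adjusted p = 0.684) beside 0.19 for *Reg4*. *Reg3a* and *Reg3b* had means under 5 CPM and were not ranked.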

How the data were processed

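The authors deposited 1 file per library of raw read counts per gene with 4 summary lines. Per the submitters' processing notes, STAR and the mm39 build were used. The annotation release and strand setting are not given in the sources used here. Per the labels' protocols, poly-A RNA was primed with random hexamers. The summary lines (19.3% to 26.7% of entries) stayed out of totals and tests. Symbols came from GENCODE M39 (56323 identifiers matched).

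Counts were tested with edgeR 4.0.16 (R 4.3.3): TMM scaling, filterByExpr with a minimum count of 10, quasi-likelihood F test, Benjamini-Hochberg adjustment over all genes, threshold 0.05, SE as the absolute log2 fold change over the square root of F. Replicates differed by more than sampling noise (chi-square per degree of freedom 33.2 and 22.9). Scripts were tested on simulated counts with known changes. For the day 6 comparison, 60.4% of 2-fold and 96.2% of 4-fold changes were called. Unchanged genes made up 12.2% of the day 6 calls and 8.72% of the both-days calls, above the share that the 0.05 threshold aims at. Alternatives used DESeq2 1.42.0, limma 3.58.1, other scalings, filters and left-out libraries. Legacy and robust edgeR settings were added after the data had been seen. The members and lists were chosen with earlier results of these data known. Named genes were the members, *Ythdf2*, *Lgr5*, *Extl3*, *Il22ra1*, *Stat3* and *Socs3*, the called genes of each list (at most the 5 largest at day 6) and the 3 genes most correlated with each member of at least 5 CPM. Further list genes, such as *Sis*, *Slc5a1*, *Sst*, *Ang4*, *Cela1* and *Il10rb*, were named outside this rule as examples.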

Additional observations from a re-analysis of the deposited data

How the results depend on the processing

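At day 6, 353 genes were called, 839 with a replicate block and 99 to 409 with a library left out. Of the Reg members 2 were called, 1 with median-of-ratios scaling, no filter, limma-voom, the legacy method or the robust dispersion, 4 with the replicate block, and 0 to 4 with a library left out. Over both days, 617 genes were called, 361 with no day term and 361 to 699 with a library left out. Of the members 2 were called, 1 with the robust dispersion, 0 with no day term, 4 with a replicate block in place of day, and 0 to 4 with a library left out. The labels do not say that replicate numbers pair libraries, and the deviations of same-numbered day 6 libraries correlated at 0.266 over 2 pairs. Between days, 79 genes were called, 182 with no filter, 318 with DESeq2, 50 with the legacy method and 12 to 559 with a library left out. Of the members 2 were called, 1 with the legacy method or the robust dispersion and 0 to 3 with a library left out. For the difference between days, 0 genes were called, 6 with DESeq2 and 0 to 13 with a library left out. With a library left out, the lone library of a label was assumed to vary like the others, and the day 6 log2 fold change ran from -0.26 to 0.52 for *Reg4*, -0.12 to 0.84 for *Chgb*, -0.41 to 0.72 for *Cpe*, -0.01 to 0.72 for *Scg2* and -0.19 to 0.30 for *Socs3*, and the difference between days from -0.81 to 0.37 for *Reg3b*. The day 4 difference in the log2 ratio to *Reg4* was 0.02, and -0.63 without *Reg1*. With coding lengths the log2 ratio of *Reg1* to *Reg3g* was 0.22 in place of 1.13 and that of *Reg3g* to *Reg3a* 1.63 in place of 0.69, with the order of the means kept. *Reg1* and *Reg3a* kept positive values under every alternative run for 4-OHT against EtOH and for day 6 against day 4. Where not stated, the cause of a change was not tested. At day 4 the *Reg1*, *Reg3a* and *Reg3b* EtOH counts of 1 to 5 limit the precision.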
